A study of Homo sapiens with 12 samples.

Results

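The genes described here are 49 components and targets of the type I interferon pathway, chosen by symbol from a fixed list that runs from the receptor chains to the induced antiviral effectors. All 49 were found among the 19824 gene entries of the expression table, and 46 passed the filter on low values. The table came from RNA sequencing of 12 libraries in 4 groups of 3. U87 cells with BCT-100, U87 cells with PBS, U373 cells with BCT-100 and U373 cells with PBS made up the groups, and both lines are human glioblastoma lines labelled wild-type. BCT-100 is a pegylated arginase I, an enzyme that breaks down arginine; it was given at 1 U/ml, PBS was the vehicle, and all cells were taken at 72 h. No group received interferon, so the values describe the pathway in cells given an arginine-degrading enzyme, set against cells in PBS. The labels name no separate cultures, so p-values measure the spread between libraries, which may be technical.

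Type I interferons bind a receptor made of IFNAR1 and IFNAR2, whose kinases JAK1 and TYK2 activate STAT2. STAT2 and IRF9 are subunits of the factor ISGF3, which binds the interferon-stimulated response element (ISRE) in promoters and switches on a broad set of genes that block viral entry, translation and replication. Cytosolic sensors of viral nucleic acid start the production of interferon, USP18 damps the receptor, and many target genes keep a low constant activity in cells that were never exposed to interferon.

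The ISRE core TTCNNTTTC was searched on both strands from 250 bases before to 50 bases after each gene's start, in promoters from RefSeq on GRCh38.p14. Of the 49 genes, 36 had such a promoter and 24 of these held the core in at least 1 window (66.7%), against 2693 of 27305 genes with a promoter (9.86%). None of the 3 receptor or kinase promoters and none of the 3 transcription factor promoters held it, while all 3 sensor promoters and all 3 membrane effector promoters did, as did 5 of the 6 RNA-binding effector promoters. The STAT site (GAS) TTCNNNGAA was present in 10 of 36 (27.8%, against 9.38% of all genes) and the NF-kB site in 6 of 36 (16.7%, against 7.09%); both were searched after the expression values were seen, and in 4 genes a GAS match overlapped an ISRE match. A match of letters says nothing of binding. The 4 stretches below are shown because 3 of them carry repeated ISRE cores, while IRF1, whose response to BCT-100 had the smallest p of the 46 in both lines, had a GAS and an NF-kB match and no ISRE core in its window. Each is written 5′ to 3′ on the gene's own strand. Capitals mark the matches, which are the core itself in IFIT1, its reverse complement in ISG15 (3 overlapping matches) and IFI6, and the GAS and then the NF-kB match in IRF1. They lie at chr10:89392496-89392542 (plus strand), chr1:1013372-1013417 (plus), chr1:27672264-27672360 (minus) and chr5:132490802-132490909 (minus).
IFIT1: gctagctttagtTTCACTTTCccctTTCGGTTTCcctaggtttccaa
ISG15: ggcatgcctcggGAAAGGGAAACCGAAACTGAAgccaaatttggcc
IFI6: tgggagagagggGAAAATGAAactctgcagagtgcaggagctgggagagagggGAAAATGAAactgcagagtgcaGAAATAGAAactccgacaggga
IRF1: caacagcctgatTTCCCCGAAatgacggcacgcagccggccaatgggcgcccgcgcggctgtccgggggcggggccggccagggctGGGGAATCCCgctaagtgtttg

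The deposited values are read counts that the authors divided by 1 factor per library, called scaled counts here. Column totals were 22101094.4 to 23433112.2 and correspond to 18.89 to 25.92 M reads (M for 1e6) per library. Recovered reads of IFNAR2, IRF9, IFIT3, IFITM1, IFITM2, IFITM3, USP18, HERC6 and SP100 were not whole in 1 or more libraries. This held in all 12 libraries for IRF9, IFITM3 and SP100, but in only 2 for IFIT3 and 1 for HERC6. Some reads of these genes may have been shared with similar sequences, so their values are less certain. Of the 9 glial markers, GFAP, the astrocyte filament, was at or below 3.9 in the 6 U87 libraries and at 8461.1 to 54054.2 in the 6 U373 libraries, and S100B and SOX2 were also at or below 2.0 in U87. OLIG2 went the other way, at 17.6 to 122.7 in U87 and at or below 14 in U373, NCAN was at or below 3.2 in all libraries, and NES, VIM, EGFR and CD44 were at 652.2 or more in all of them. Of 9 leukocyte markers, AIF1 and CD3E were at 0 in all 12 libraries and PTPRC, ITGAM and LYZ at or below 5.4, while CD68 was at 2395.0 to 6094.0 in U87, CSF1R at 79.8 to 298.4 in U87, NCAM1 at 1098.7 to 1788.3 in U373 and CD14 at or below 84.7. The sum of the leukocyte list was 2932.1 to 3076.7 in U87 with BCT-100, against 6456.9 to 6628.9 in U87 with PBS, and 1331.0 to 1426.3 in U373 with BCT-100, against 2106.5 to 2284.1 in U373 with PBS. Most of each sum came from CD68 in U87 and from NCAM1 in U373, so the sums mainly follow those genes. The 5 fibroblast and endothelial markers summed to 5130.0 to 5406.0 in U87 with PBS and 3390.5 to 3571.7 in U87 with BCT-100. In U373 their sum was 227.5 to 275.6. Of the 4 plasmacytoid dendritic cell markers, CLEC4C, IL3RA and LILRA4 were at or below 1.2 in all libraries and TCF4 was at 546.8 to 2085.3. The part of these genes in the results was not tested. In bulk RNA, fewer cells making a transcript and less of it in each cell cannot be told apart.

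One library stood apart on the genes described here. In U373 PBS replicate 1, 27 of the 47 genes with a mean of at least 10 in the U373 PBS group were 1.5-fold or more above the mean of U373 PBS replicates 2 and 3, against 1.56% of all genes with such a mean, and 0 were that much lower. The median log2 ratio of the 47 was 0.72, against 0.01 over all genes. These genes took 8 of the 10 highest ratios in that library, 16 of the highest 40 and 22 of the highest 100. The mean of at least 10 includes replicate 1, and RSAD2, BST2 and CMPK2 reached it only through that library. In replicates 2 and 3 they had 0.0 and 0.0, 5.9 and 1.8, and 8.2 and 9.1 scaled counts. They are counted in the 27, rank 2, 4 and 7 among the ratios and enter the medians given below. In 39 of the 49 genes U373 PBS replicate 1 was the highest of the 6 U373 libraries, and in 28 it was the highest of all 12. The shares of all genes for these counts were not computed. Of the 46 tested genes, 24 were lower in U373 with BCT-100, which makes a PBS library the more likely maximum. In the 9 libraries of the other 3 groups the same median lay between -0.08 and 0.08, and at most 2 genes were 1.5-fold higher.

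The receptor and kinase genes and the transcription factors stood out least in that library. The 4 receptor and kinase genes were within 0.978-fold and 1.06-fold, and IRF9 was the 1 transcription factor past the line, at 2.43-fold. The medians were 1.10-fold for the transcription factors, 1.25-fold for the TRIM, PARP and nuclear genes, 1.5-fold for the sensors and 1.87-fold for the ISG15 system. They were 2.44-fold for the other inducible genes, 2.66-fold for the membrane effectors, 2.92-fold for the RNA-binding effectors and 6.15-fold for the GTPase and nucleotide effectors. Not all effectors were high, with ISG20 at 0.94-fold and IFITM2 at 1.03-fold. RSAD2, which encodes viperin, an enzyme that makes a chain-terminating nucleotide, had 34.1 scaled counts in replicate 1 and 0.0 in replicates 2 and 3, which is at least 21.8-fold higher if those 2 libraries together are given 3 reads. On scaled counts with nothing added, BST2 was 11.5-fold, CMPK2 6.39-fold and IFITM1 5.96-fold the mean of the other 2. With 1 added to each side, as in the medians and the 1.5-fold line, they were at 9.35-fold, 5.83-fold and 5.58-fold. Just past the 1.5-fold line were TRIM21 at 1.52 and USP18 at 1.63. Just short of it were DHX58, whose log2 ratio of 0.58 rounds to 1.5-fold, and SAMHD1 at 1.39. Of the promoters available, 15 of 20 genes past the line held the ISRE core (75%), as did 8 of 15 genes short of it (53.3%), both above the 9.86% of all genes.

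The recovered depth of U373 PBS replicate 1 was 24.33 M reads, against 18.89 M in replicate 2, the lowest of the 12, and 24.55 M in replicate 3. The share of mitochondrially encoded counts was 4.26%, against 4.30% and 4.36%. ASNS, asparagine synthetase, which is induced by amino acid shortage, had 14780.3 to 15985.0 scaled counts in the 3 U373 BCT-100 libraries, against 731.2 in this PBS library and 795.8 and 736.4 in the other 2. IFNB1, which encodes interferon beta, had 2.8 there, against 1.2 and 0.0. The IFNA1, IFNK, IFNW1 and lambda interferon genes IFNL1, IFNL2 and IFNL3 were at 0 in all 12 libraries. CXCL10, an interferon-induced chemokine, had 12 there and 0.0 in the other 2. The part of any of these in the difference between the libraries was not tested. Because this library is 1 of 3 in a control group, the counts of calls in each comparison are given with and without it, and values without it are given beside called genes that it moved by over 1.5 times. The library was singled out on the values of these same genes. Leaving it out lowers the spread of the genes that stood out in it. Smaller p-values in fits without it are therefore partly set by that choice and are not independent support.

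**Figure D1:**
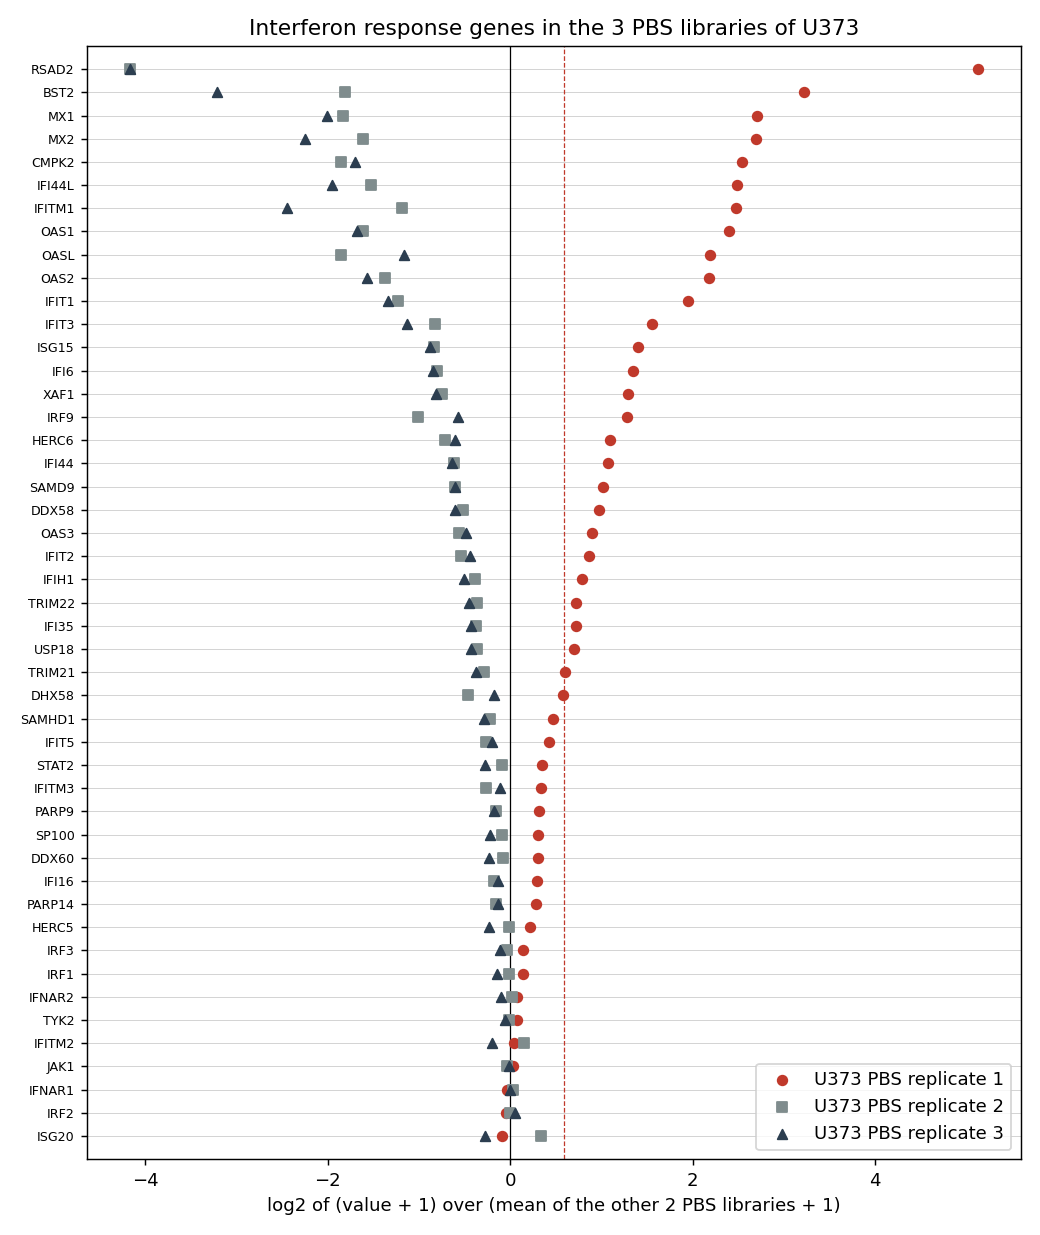
Each row is 1 of the 47 genes with a mean of at least 10 in the U373 PBS group, and each symbol is 1 of the 3 U373 PBS libraries, plotted as the log2 ratio of its scaled count plus 1 to the mean of the other 2 plus 1; the dashed line marks 1.5-fold. Replicate 1 lies past the line in 27 genes, while JAK1, IFNAR1, TYK2 and IRF2 lie at 0 within 0.1 in all 3 libraries. RSAD2, BST2 and CMPK2 have a mean of at least 10 only through replicate 1.

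Tests were made with limma on log2 of the scaled count plus 1 over 13628 genes, with p-values adjusted over all of them, and a gene is called higher or lower at an adjusted p under 0.05. In U87, 20 of the 46 tested genes rose with BCT-100, 8 fell and 18 did not pass, against a background of 33.6% of all genes higher and 35.7% lower. Their median log2 fold change was 0.38, against -0.01 over all genes. In U373, 5 rose, 24 fell and 17 did not pass, against 35.6% of all genes higher and 35.8% lower, with a median of -0.80 against 0.00. The share lower in U373 lay above that of all genes, and the share higher lay below it.

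Leaving out U373 PBS replicate 1 kept the tilt and reduced its size. U373 then had 10 genes higher, 23 lower and 13 not passing, against 34.5% and 34.0% of the 13558 genes tested, and the median log2 fold change was -0.45. All 5 genes called higher with 12 libraries stayed so, as did 22 of the 24 called lower. The fold changes of 8 of the 46 genes in U373 moved by over 1.5 times, all of them toward no change and BST2 by the most, at 2.17 times. All 8 had negative log2 fold changes and were past the 1.5-fold line in that library. Leaving it out could therefore only raise them, and the shared direction is no separate result. The share of all genes that moved so far was not computed. In U87, whose libraries are the same in both fits, the counts went to 24 higher and 12 lower (33.8% and 35.7% of all genes), since the fit shares 1 estimate of the spread per gene. All 20 higher and 8 lower calls of the larger fit stayed. Fitted alone, without any U373 library, U87 had 25 higher and 12 lower of 45, the added calls being IRF9, OASL, BST2, MX1, MX2, SAMD9, ISG15, IFI6 and IFI44L. U373 fitted alone had 4 higher and 20 lower of 43, with DDX60, IFIT2, OAS1, OAS2, SAMD9 and IFI44L no longer called and OASL added. Over all genes, the fits of 1 line had 4657 higher and 4958 lower of 12673 in U87, and 4871 and 4906 of 12666 in U373.

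Among the receptor and kinase genes, JAK1 rose and TYK2 fell in both lines. JAK1 had 9728.1, 10059.4 and 10143.8 scaled counts in U87 with BCT-100, against 6381.4, 6363.9 and 6462.5 in U87 with PBS. In U373, JAK1 had 6949.2, 6953.6 and 6914.4 with BCT-100, against 4796.8, 4661.0 and 4707.6 with PBS. The groups did not overlap in either line, and the log2 fold changes were 0.64 ± 0.03 (SE) in U87 and 0.56 ± 0.03 in U373 (adjusted p = 1.62e-14 and 1.37e-13). JAK1 shares exon positions with RAVER2 on the opposite strand, and the labels do not say whether the counting used strand.

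TYK2, the kinase that rests on IFNAR1, had 815.3, 933.5 and 926.1 in U87 with BCT-100, against 1418.1, 1464.5 and 1322.9 in U87 with PBS. In U373, TYK2 had 813.9, 803.8 and 853.4 with BCT-100, against 1651.1, 1591.5 and 1559.2 with PBS. Treated libraries were below PBS libraries in both lines, and the log2 fold changes were -0.65 ± 0.06 and -0.96 ± 0.06 (adjusted p = 1.72e-09 and 3.38e-12). IFNAR1 had 2270.7, 2180.0 and 2216.4 in U87 with BCT-100, against 2446.0, 2264.1 and 2297.0 in U87 with PBS, and these overlapped. In U373, IFNAR1 had 1562.2, 1487.1 and 1478.7 with BCT-100, against 1710.1, 1762.4 and 1735.6 with PBS, a fall of small size to 0.869-fold (log2 fold change -0.20 ± 0.04, adjusted p = 0.00012). IFNAR2, the second receptor chain, fell in U373 (-0.78 ± 0.08, adjusted p = 3.12e-08) and did not pass in U87 (-0.11 ± 0.08, adjusted p = 0.25). All 4 were within 0.978-fold and 1.06-fold in U373 PBS replicate 1.

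IRF1 had the highest fold change of the 46 genes in both lines, and STAT2 fell in U373. IRF1 encodes a transcription factor that interferon gamma, NF-kB and other signals induce and that binds elements much like the ISRE. It had 3774.8, 3858.5 and 3830.6 in U87 with BCT-100, against 540.8, 574.9 and 637.0 in U87 with PBS. In U373, IRF1 had 2077.2, 2111.7 and 2178.5 with BCT-100, against 621.6, 581.6 and 547.3 with PBS. All treated libraries lay far above all PBS libraries, 6.55-fold in U87 (log2 fold change 2.71 ± 0.06, adjusted p = 1.99e-19) and 3.64-fold in U373 (1.86 ± 0.06, adjusted p = 8.3e-17). IRF2, a related factor that mostly acts against IRF1, had 595.6, 683.7 and 682.6 in U87 with BCT-100, against 474.3, 487.6 and 450.9 in U87 with PBS. In U373, IRF2 had 437.7, 463.2 and 456.0 with BCT-100, against 380.3, 388.5 and 398.2 with PBS. It rose by smaller steps in both (0.47 ± 0.07 and 0.22 ± 0.07, adjusted p = 4.36e-06 and 0.00851).

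STAT2, the ISGF3 subunit that carries its activation domain, had 1644.0, 1741.7 and 1557.7 in U87 with BCT-100, against 1768.2, 1736.5 and 1760.0 in U87 with PBS. In U373, STAT2 had 538.4, 500.0 and 510.0 with BCT-100, against 1265.3, 1038.0 and 946.4 with PBS. The U87 groups overlapped (-0.09 ± 0.08, adjusted p = 0.302), while STAT2 in U373 was lower in every treated library (-1.06 ± 0.08, adjusted p = 1.15e-09, and -0.94 ± 0.06 without U373 PBS replicate 1). IRF9, the DNA-binding subunit of ISGF3, had 308.2, 315.2 and 325.4 in U87 with BCT-100, against 222.3, 204.4 and 208.5 in U87 with PBS. In U373, IRF9 had 198.3, 217.6 and 176.1 with BCT-100, against 409.8, 148.3 and 188.2 with PBS. The treated U87 libraries lay above the PBS ones, but the log2 fold change of 0.58 did not pass with all libraries (SE 0.30, adjusted p = 0.116). It passed without U373 PBS replicate 1 (SE 0.11, adjusted p = 0.000132) or without U373 PBS replicate 2 (adjusted p = 0.0328). In U373 IRF9 did not pass in either fit (-0.20 ± 0.30, adjusted p = 0.586, and 0.23 ± 0.12, adjusted p = 0.103).

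IRF7, the factor that amplifies interferon production, was a U87 gene. It had 159.5, 126.3 and 142.4 in U87 with BCT-100, against 34.2, 48.2 and 50 in U87 with PBS. In U373, IRF7 had 1.1, 0.0 and 0.0 with BCT-100, against 0.0, 0.0 and 0.0 with PBS, which gives no fold change. IRF7 rose in U87 (1.68 ± 0.40, 3.21-fold, adjusted p = 0.000853). IRF3, the factor that starts interferon transcription, also rose in U87 (0.41 ± 0.07, adjusted p = 5.5e-05) and did not pass in U373 (-0.02 ± 0.07, adjusted p = 0.866); it shares exon positions with BCL2L12 on the opposite strand.

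The cytosolic sensors of viral RNA fell in U373, and IFI16 rose in both lines. DDX58 encodes RIG-I, the sensor of RNA with a free triphosphate end. It had 642.3, 679.2 and 679.4 in U87 with BCT-100, against 623.0, 582.2 and 641.3 in U87 with PBS. In U373, DDX58 had 317.9, 365.6 and 361.1 with BCT-100, against 1432.9, 746.6 and 715.5 with PBS. It did not pass in U87 (0.12 ± 0.23, adjusted p = 0.677) and fell in U373 with U373 PBS replicate 1 (-1.39 ± 0.23, adjusted p = 0.000424) and without it (-1.07 ± 0.08, adjusted p = 3.35e-10).

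IFIH1, which encodes MDA5, the sensor of long double-stranded RNA, had 190.6, 168.7 and 209.8 in U87 with BCT-100, against 144.7, 137.4 and 123.4 in U87 with PBS. In U373, IFIH1 had 241.6, 278.9 and 255.0 with BCT-100, against 852.7, 506.7 and 476.4 with PBS. The lines moved in opposite directions and their levels came closer together. IFIH1 rose in U87 (0.48 ± 0.17, adjusted p = 0.0192) and fell in U373 (-1.19 ± 0.17, adjusted p = 1.06e-05, and -0.93 ± 0.12 without U373 PBS replicate 1). The U87 call was lost in 3 of 12 fits that left out a library, with U87 PBS replicate 3 and U87 BCT-100 replicates 1 and 3 the ones that mattered (adjusted p up to 0.0778). DHX58, a regulator of both sensors, fell in U373 (-1.35 ± 0.17, adjusted p = 4.31e-07) and did not pass in U87 (-0.13 ± 0.17, adjusted p = 0.51). DDX60, a helicase linked to RIG-I signalling, rose in U87 (0.50 ± 0.10, adjusted p = 0.000187); its fall in U373 (-0.23 ± 0.10, adjusted p = 0.0492) was lost in 9 of 12 such fits, kept only without U87 PBS replicate 3, U373 PBS replicate 3 or U373 BCT-100 replicate 3, with adjusted p up to 0.278.

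IFI16, a nuclear sensor of DNA, had 7284.4, 7382.4 and 7592.6 in U87 with BCT-100, against 3775.0, 3749.5 and 3751.8 in U87 with PBS. In U373, IFI16 had 4212.8, 4356.8 and 4212.9 with BCT-100, against 2532.4, 2046.7 and 2098.3 with PBS. Its rise was close in size in the 2 lines, 1.97-fold and 1.92-fold (adjusted p = 5.66e-10 and 7.8e-10), and the U87 minus U373 difference of the log2 fold changes was 0.04 ± 0.08 (adjusted p = 0.719).

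The IFIT family split within each line. IFIT1, IFIT2 and IFIT3 lie on chromosome 10 and encode proteins that bind viral or aberrant RNA and block its translation. IFIT1 had 65.3, 55.0 and 47.8 in U87 with BCT-100, against 207.3, 177.4 and 171.2 in U87 with PBS. In U373, IFIT1 had 110.2, 152.4 and 123.8 with BCT-100, against 1679.7, 447.0 and 418.2 with PBS. It fell in both lines without overlap, to 0.305-fold in U87 (log2 fold change -1.71 ± 0.47, adjusted p = 0.01) and to 0.189-fold in U373 (-2.40 ± 0.47, adjusted p = 0.00142). Without U373 PBS replicate 1 the U373 fall was to 0.297-fold (-1.75 ± 0.17, adjusted p = 2.21e-08), beside 0.305-fold in U87.

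IFIT3, which stabilises IFIT1 in a complex, went the other way. It had 841.1, 901.0 and 819.2 in U87 with BCT-100, against 352.1, 360.6 and 400.9 in U87 with PBS. In U373, IFIT3 had 646.5, 687.3 and 755.7 with BCT-100, against 1104.1, 409.6 and 344.6 with PBS. IFIT3 rose in U87 (1.20 ± 0.37, 2.30-fold, adjusted p = 0.0179), and in U373 it passed without U373 PBS replicate 1 (0.89 ± 0.09, adjusted p = 4.62e-08, against 0.37 ± 0.37, adjusted p = 0.405, with it). IFIT2 had 282.8, 294.0 and 254.4 in U87 with BCT-100, against 113.4, 136.4 and 103.2 in U87 with PBS. In U373, IFIT2 had 412.3, 444.2 and 405.7 with BCT-100, against 456.8, 245.7 and 258.2 with PBS. IFIT2 rose in U87 (1.24 ± 0.19, 2.35-fold, adjusted p = 4.05e-05). Its U373 call (0.45 ± 0.19, adjusted p = 0.0449) was lost in 10 of 12 fits that left out a library, with adjusted p up to 0.173. It was kept without U87 PBS replicate 2 and without U373 PBS replicate 1 (0.74 ± 0.12, adjusted p = 2.42e-05). IFIT5 rose in U87 (0.30 ± 0.09, adjusted p = 0.00954) and, without U373 PBS replicate 1, in U373 (0.27 ± 0.06, adjusted p = 0.000776).

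The OAS family, whose enzymes make the oligoadenylate messenger that activates RNase L, held no gene that rose. OAS1 had 35.2, 61.3 and 42.4 in U87 with BCT-100, against 120.3, 166.5 and 120.2 in U87 with PBS. In U373, OAS1 had 20.1, 35.9 and 22.3 with BCT-100, against 336.1, 64.4 and 61.8 with PBS. It fell in U87 (-1.55 ± 0.59, 0.341-fold, adjusted p = 0.0385) and in U373 (-2.08 ± 0.59, 0.236-fold, adjusted p = 0.00935), and the U373 level was 0.410-fold without U373 PBS replicate 1. The U87 call was lost in 7 of 12 fits that left out a library, and kept without any 1 of the U373 PBS libraries, U87 BCT-100 replicate 2 or U373 BCT-100 replicate 2 (adjusted p up to 0.109). OAS3 fell in both lines (-0.61 ± 0.22 in U87 and -1.31 ± 0.22 in U373, adjusted p = 0.0301 and 0.000412), its U87 call being lost without any 1 of the U87 PBS libraries or U87 BCT-100 replicates 1 or 2, with adjusted p up to 0.084. OAS2 fell in U373 (-2.02 ± 0.50, adjusted p = 0.00515, and -1.29 ± 0.15 without U373 PBS replicate 1) and did not pass in U87 (0.02 ± 0.50, adjusted p = 0.987).

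OASL, a relative without synthetase activity that aids RIG-I, had 277.6, 313.9 and 329.4 in U87 with BCT-100, against 600.5, 649.5 and 597.6 in U87 with PBS. In U373, OASL had 5.3, 11 and 9.3 with BCT-100, against 58.0, 9.4 and 14.5 with PBS. The treated U87 libraries were well below the PBS ones, yet the log2 fold change of -1.0 passed without U373 PBS replicate 1 and not with it (SE 0.22, adjusted p = 0.000519, against SE 0.54, adjusted p = 0.127). In U373 OASL did not pass in either of these fits (adjusted p = 0.0714 and 0.104), but did without U373 PBS replicate 2 (-1.72, adjusted p = 0.00866). ISG20, an RNA exonuclease, rose in U87 (2.09 ± 0.31, 4.25-fold, adjusted p = 4.59e-06) and did not pass in U373 (0.32 ± 0.31, adjusted p = 0.371).

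**Figure D2:**
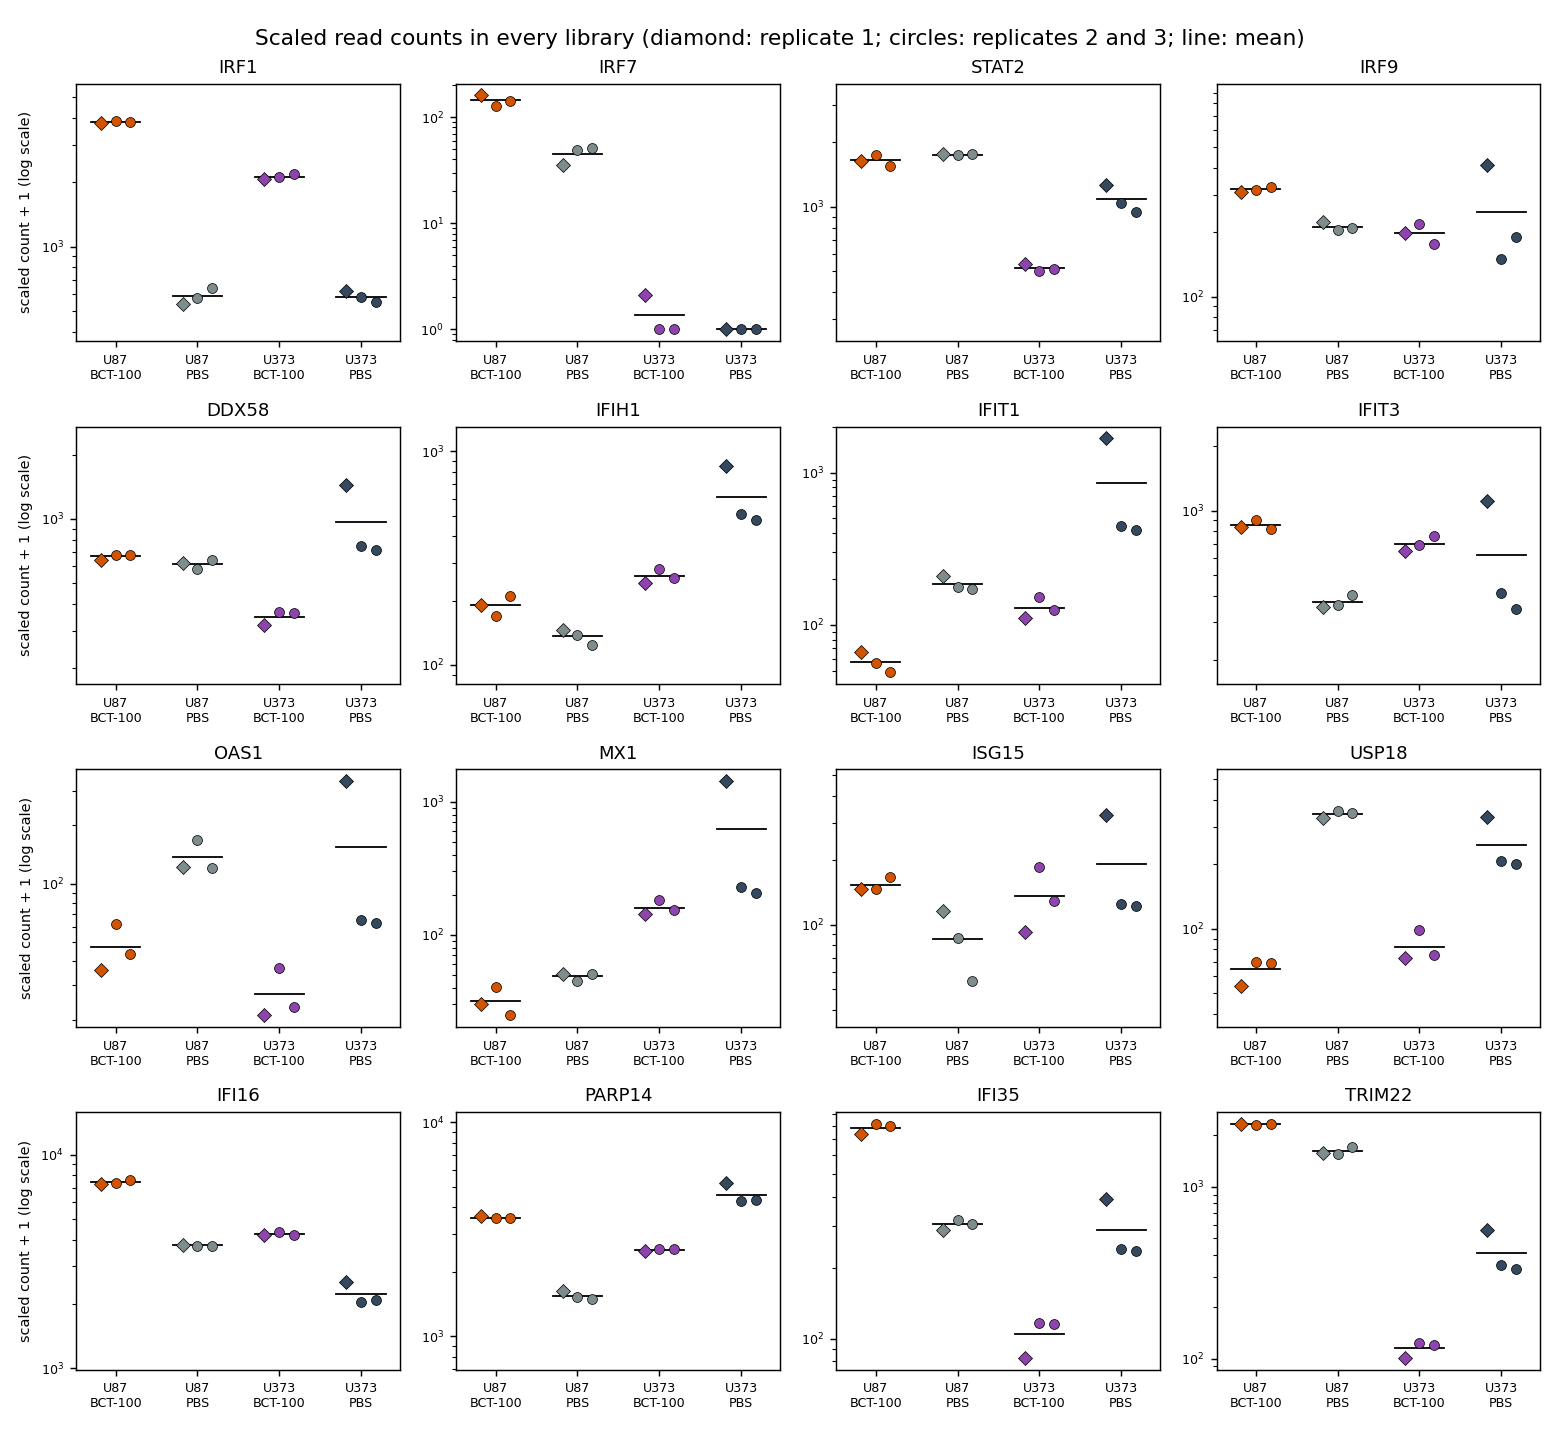
Scaled counts plus 1 on log axes that differ between panels, for 16 of the 49 genes in every library of U87 with BCT-100, U87 with PBS, U373 with BCT-100 and U373 with PBS; diamonds are replicate 1, circles replicates 2 and 3, and bars the mean of 3. In IFIT1, IFIT3, OAS1, MX1, DDX58 and ISG15 the U373 PBS diamond lies above both circles of its group, while in IRF1 the 3 symbols lie together at 547.3 to 621.6.

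Among the membrane effectors, IFITM3 moved in opposite directions in the 2 lines. IFITM3 blocks the fusion of viruses with endosomal membranes. It had 558.0, 539.7 and 498.8 in U87 with BCT-100, against 386.7, 449.7 and 406.6 in U87 with PBS. In U373, IFITM3 had 826.2, 801.7 and 708.0 with BCT-100, against 1121.1, 851.4 and 915.3 with PBS. It rose in U87 (0.36 ± 0.09, adjusted p = 0.00142) and fell in U373 (-0.30 ± 0.09, adjusted p = 0.00588), and the fall did not pass without U373 PBS replicate 1 (-0.18 ± 0.08, adjusted p = 0.0582). BST2, or tetherin, which holds budding virus at the cell surface, was near the limit of detection. It had 10.4, 12.6 and 17.4 in U87 with BCT-100, against 6.8, 3.6 and 3.2 in U87 with PBS. In U373, BST2 had 4.2, 9.0 and 0.0 with BCT-100, against 44.2, 5.9 and 1.8 with PBS. BST2 did not pass in either line with all libraries or without U373 PBS replicate 1 (adjusted p between 0.0727 and 0.807), and in U373 it passed without U373 PBS replicate 3 (-2.24, adjusted p = 0.0337). IFITM2 fell in U87 (-0.61 ± 0.22, adjusted p = 0.019), a call lost without U87 PBS replicate 2, U87 PBS replicate 3 or U87 BCT-100 replicate 3 (adjusted p up to 0.0756), and IFITM1, which shares exon positions with it, was at or below 2.6 in all U87 libraries and untested.

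In the GTPase and nucleotide effectors, SAMHD1 fell in both lines, and the MX1 level of U373 PBS was set by 1 library. MX1 encodes the GTPase MxA, which traps viral nucleoproteins. It had 29, 39.7 and 23.9 in U87 with BCT-100, against 49.9, 43.7 and 50 in U87 with PBS. In U373, MX1 had 142.0, 183.3 and 153.5 with BCT-100, against 1432.0, 229.4 and 205.5 with PBS. MX1 was lower in every treated library of both lines. With all libraries it passed in neither (adjusted p = 0.407 in U87 and 0.0916 in U373), and without U373 PBS replicate 1 it fell in U87 (-0.64 ± 0.19, adjusted p = 0.00651) and not in U373 (-0.45 ± 0.22, adjusted p = 0.0746). It passed in U373 without U373 PBS replicate 2 (-1.77, adjusted p = 0.0485) or replicate 3 (-1.85, adjusted p = 0.0328).

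SAMHD1, which depletes the nucleotides viruses need, fell in U87 (-0.49 ± 0.10, adjusted p = 0.00102) and in U373 (-1.11 ± 0.10, adjusted p = 7.92e-07, and -0.95 ± 0.05 without U373 PBS replicate 1); it shares exon positions with TLDC2 on the opposite strand. SAMD9, which restricts poxviruses, fell in U373 (-0.91 ± 0.24, adjusted p = 0.0082, and -0.57 ± 0.06 without that library) and rose in U87 in the fit without it (0.39 ± 0.05, adjusted p = 1.15e-06, against adjusted p = 0.188). MX2, whose product restricts HIV, likewise rose in U87 and fell in U373 in that fit (1.10 ± 0.19, adjusted p = 5.18e-05, and -0.53 ± 0.22, adjusted p = 0.0358), where with all libraries it passed in neither (adjusted p = 0.15 and 0.0654). Without U373 PBS replicate 3 the MX2 fall in U373 was -2.04 (adjusted p = 0.00744). RSAD2 and CMPK2, neighbours on chromosome 2 with overlapping exons on opposite strands, were at or below 10.0 in all 11 libraries other than U373 PBS replicate 1 and were untested.

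In the ISG15 system USP18 fell in both lines. USP18 removes ISG15 from proteins and holds back signalling at IFNAR2. It had 53.1, 69.0 and 68.5 in U87 with BCT-100, against 329.8, 356.1 and 346.3 in U87 with PBS. In U373, USP18 had 72.1, 98.0 and 74.4 with BCT-100, against 330.3, 206.6 and 199.1 with PBS. The groups were far apart in both lines. USP18 fell to 0.186-fold in U87 (-2.43 ± 0.18, adjusted p = 1.38e-10) and to 0.341-fold in U373 (-1.55 ± 0.18, adjusted p = 1.1e-07), or 0.401-fold without U373 PBS replicate 1.

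ISG15, the ubiquitin-like modifier itself, had 145.0, 145.2 and 166.3 in U87 with BCT-100, against 114.4, 85.5 and 53.2 in U87 with PBS. In U373, ISG15 had 91.1, 184.3 and 128.4 with BCT-100, against 325.1, 124.0 and 121.8 with PBS. The treated U87 libraries were all higher, and the log2 fold change of 0.91 passed without U373 PBS replicate 1 (SE 0.26, adjusted p = 0.00628) and also without U87 PBS replicate 1 (1.16, adjusted p = 0.0495), but not with all libraries (SE 0.43, adjusted p = 0.0856). In U373 the groups overlapped and ISG15 did not pass (adjusted p = 0.438, and 0.851 without that library). HERC5, the main ligase that attaches ISG15, fell in U373 (-0.54 ± 0.08, adjusted p = 4.3e-06) and did not pass in U87 (0.08 ± 0.08, adjusted p = 0.41). HERC6, its relative, rose in U87 (0.69 ± 0.25, adjusted p = 0.0352), a call lost without any 1 of the 6 U87 libraries (adjusted p up to 0.0962). In U373 HERC6 changed sign between the fits, at -0.14 ± 0.25 (adjusted p = 0.646) with U373 PBS replicate 1 and 0.23 ± 0.09 (adjusted p = 0.0374) without it.

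PARP14 and TRIM22 rose in U87 and fell in U373. PARP14 encodes a mono-ADP-ribosyltransferase. It had 3623.6, 3550.0 and 3567.5 in U87 with BCT-100, against 1622.5, 1518.2 and 1490.9 in U87 with PBS. In U373, PARP14 had 2499.1, 2544.0 and 2541.5 with BCT-100, against 5190.0, 4259.6 and 4304.0 with PBS. Neither pair of groups overlapped, and the fold changes of 2.32 and 0.554 pointed opposite ways (log2 fold change 1.21 ± 0.06 and -0.85 ± 0.06, adjusted p = 3.98e-12 and 4.37e-10). TRIM22, a ubiquitin ligase of the tripartite motif family, was at 2286.4 to 2315.3 in U87 with BCT-100, against 1558.2 to 1710.0 in U87 with PBS, and at 99.6 to 121.5 in U373 with BCT-100, against 331.8 to 559.0 in U373 with PBS. Its log2 fold changes were 0.51 ± 0.17 in U87 (adjusted p = 0.0217) and -1.82 ± 0.17 in U373 (adjusted p = 3.75e-06, and -1.58 ± 0.08 without U373 PBS replicate 1). The U87 call was lost without U87 PBS replicate 1 (adjusted p = 0.0533) or replicate 2 (adjusted p = 0.0564).

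PARP9, which acts with the ligase DTX3L, had 961.3, 962.4 and 934.8 in U87 with BCT-100, against 1020.0, 950.6 and 967.7 in U87 with PBS. In U373, PARP9 had 1014.2, 1169.4 and 1108.4 with BCT-100, against 2253.4, 1815.0 and 1791.0 with PBS. It did not pass in U87 (-0.04 ± 0.07, adjusted p = 0.648) and fell in U373 (-0.83 ± 0.07, adjusted p = 6.52e-09); its exons share positions with those of DTX3L on the opposite strand. SP100, a component of nuclear bodies, had 3475.0, 3406.0 and 3488.8 in U87 with BCT-100, against 2418.4, 2344.4 and 2518.9 in U87 with PBS. In U373, SP100 had 1332.5, 1398.4 and 1333.1 with BCT-100, against 1463.7, 1228.2 and 1155.9 with PBS. SP100 rose in U87 (0.51 ± 0.06, adjusted p = 9.18e-07), and in U373 it passed without U373 PBS replicate 1 (0.18 ± 0.04, adjusted p = 0.00119, against 0.09 ± 0.06, adjusted p = 0.228). TRIM21, a cytosolic antibody receptor, rose in U87 (0.75 ± 0.12, adjusted p = 1.51e-05) and did not pass in U373 (adjusted p = 0.437).

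Of the remaining inducible genes, IFI35 moved in opposite directions in the 2 lines and IFI44 fell in both. IFI35, a leucine zipper protein, had 736.5, 813.6 and 795.7 in U87 with BCT-100, against 288.5, 317.5 and 306.3 in U87 with PBS. In U373, IFI35 had 81.6, 115.5 and 114.5 with BCT-100, against 390.4, 239.9 and 233.7 with PBS. It rose 2.57-fold in U87 (1.36 ± 0.17, adjusted p = 7.21e-06) and fell to 0.369-fold in U373 (-1.44 ± 0.17, adjusted p = 3.68e-06), or 0.436-fold without U373 PBS replicate 1. IFI6, a mitochondrial and ER protein, had 112.9, 129.9 and 123.9 in U87 with BCT-100, against 165.3, 155.5 and 168.0 in U87 with PBS. In U373, IFI6 had 75.2, 91.6 and 74.4 with BCT-100, against 433.7, 172.0 and 167.3 with PBS. IFI6 was lower in every treated library of both lines. It fell in U373 (-1.52 ± 0.28, adjusted p = 0.000301, and -1.07 ± 0.15 without that library), and in U87 it passed without it (-0.41 ± 0.13, adjusted p = 0.01, against adjusted p = 0.212).

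IFI27, which in many tissues is among the most strongly induced genes of this pathway, had 4.1, 8.1 and 6.5 in U87 with BCT-100, against 3.9, 10.9 and 12.8 in U87 with PBS. In U373, IFI27 had 3.2, 11 and 13 with BCT-100, against 8.3, 9.4 and 4.5 with PBS. The groups overlapped at these low levels and it passed nowhere. IFI44 fell in U87 (-0.93 ± 0.25, adjusted p = 0.00844) and in U373 (-2.21 ± 0.25, adjusted p = 2.53e-05, and -1.85 ± 0.11 without U373 PBS replicate 1). IFI44L fell in U373 (-2.19 ± 0.60, adjusted p = 0.0097, and -1.35 ± 0.14) and passed in U87 without that library (-0.64 ± 0.13, adjusted p = 0.000216, against adjusted p = 0.376 with it). XAF1, which antagonises inhibitors of apoptosis, rose in U87 (0.95 ± 0.29, adjusted p = 0.0093; adjusted p = 0.0513 without U87 PBS replicate 1) and passed in U373 without U373 PBS replicate 1 (0.78 ± 0.22, adjusted p = 0.00376, against adjusted p = 0.305 with it).

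Read together by line, 5 genes rose in both with all 12 libraries (IFI16, IFIT2, IRF1, IRF2 and JAK1) and 7 fell in both (IFI44, IFIT1, OAS1, OAS3, SAMHD1, TYK2 and USP18), against 22.3% and 23.1% of all genes. Another 6 rose in U87 and fell in U373 (DDX60, IFI35, IFIH1, IFITM3, PARP14 and TRIM22), and 0 did the reverse, also at an unadjusted p under 0.05 in limma, against 4.50% and 5.03% of all genes. Without U373 PBS replicate 1, 10 rose in both, 9 fell in both and 6 rose in U87 and fell in U373, against 21.9%, 22.5% and 4.20% of all genes. IFI35, IFIH1, PARP14 and TRIM22 were in the last group both times, and again 0 did the reverse, against 4.81%.

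**Figure D3:**
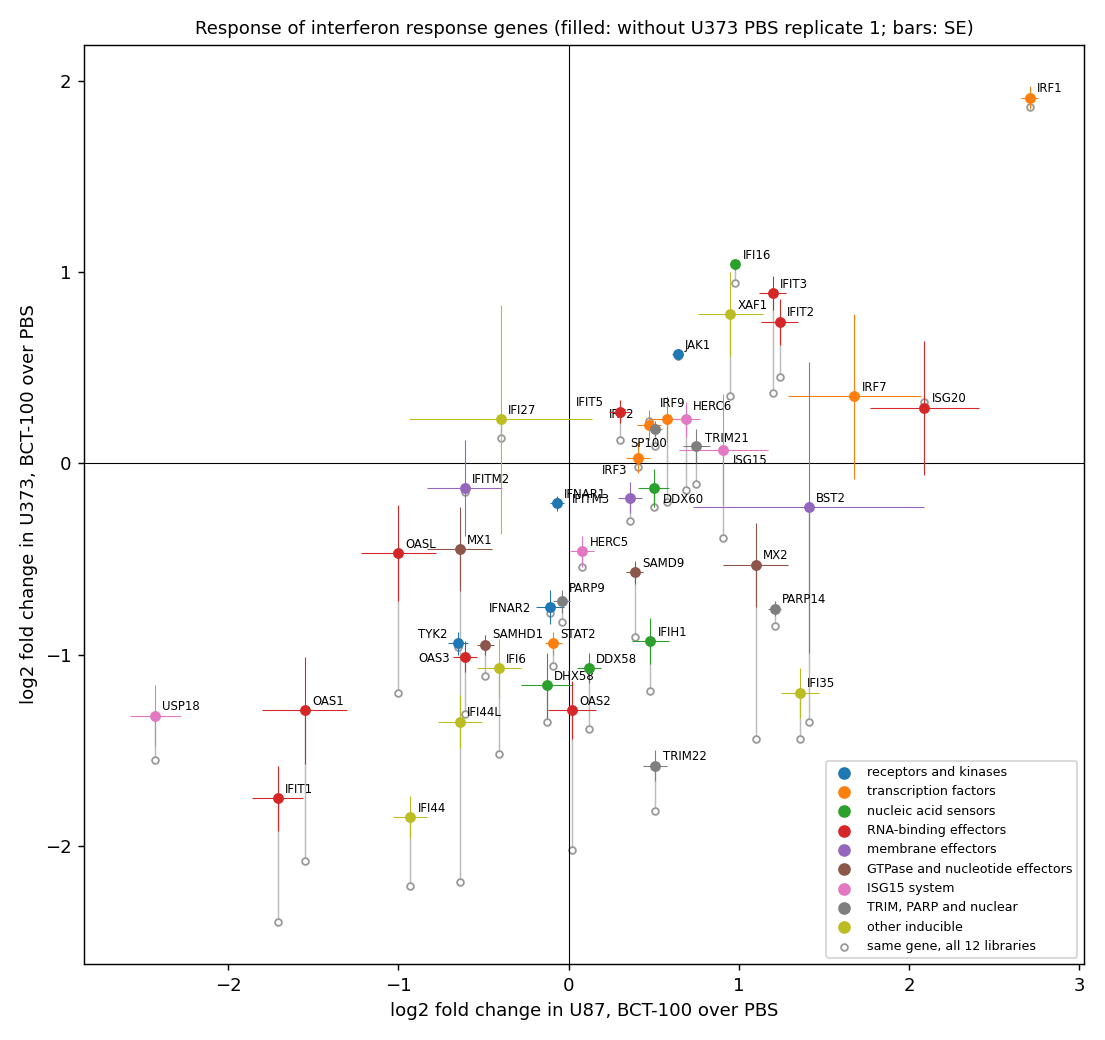
Each filled point is 1 of the 46 tested genes, placed by its log2 fold change with BCT-100 in U87 (horizontal) and in U373 (vertical) in the fit without U373 PBS replicate 1, with SE bars, coloured by role; the open circle joined to it is the same gene with all 12 libraries. IRF1 stands alone at 2.71 and 1.91, IFIT1 and USP18 lie low on both axes, and IFI35, PARP14 and TRIM22 lie right of 0 on the U87 axis and below 0 on the U373 axis.

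The difference between the lines was tested directly as the U87 log2 fold change minus that of U373. With all libraries 27 of the 46 genes had a higher value in U87, 1 a lower value and 18 did not pass, against 26.1% of all genes higher and 30.7% lower. The median difference was 0.78, against -0.04 over all genes. Without U373 PBS replicate 1 the counts were 30 higher and 1 lower, against 24.6% and 29.9%, with a median of 0.54. Of the 27, 26 stayed and IRF7 was the 1 that did not; its difference of 1.34 ± 0.56 (adjusted p = 0.0494) was lost in 11 of 12 fits that left out a library and depends on the pseudocount, since U373 was at or near 0.

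PARP14 had the smallest p of the 46 genes, with a difference of 2.07 ± 0.08 (adjusted p = 1.35e-12), followed by IRF1 at 0.85 ± 0.08 (adjusted p = 1.62e-08), IFI35 at 2.80 ± 0.25 (adjusted p = 2.66e-07), STAT2 at 0.97 ± 0.11 (adjusted p = 8.61e-07) and PARP9 at 0.79 ± 0.10 (adjusted p = 2.91e-06). IFIT1, OAS1, OASL, IFITM2, BST2, MX1 and ISG15 passed in neither of these fits. IFIT1 was at 0.69 ± 0.67 with all libraries and at 0.04 ± 0.22 without U373 PBS replicate 1 (adjusted p = 0.413 and 0.90). USP18 was the gene with a lower value in U87, at -0.88 ± 0.25 (adjusted p = 0.00526) and -1.11 ± 0.22 without that library (adjusted p = 0.000319). All 5 genes of the TRIM, PARP and nuclear group passed in both fits, and so did 4 of the 5 sensors. Calls for MX2, OAS2 and IFI6 were lost in 9, 9 and 7 of the 12 fits that left out a library, with adjusted p up to 0.0669, 0.0663 and 0.0712, and those for IFIT2 and IRF2 in 3 and 5, with adjusted p up to 0.0619 and 0.0817. The MX2 difference was 1.63 without U373 PBS replicate 1, in place of 2.54, and that of OAS2 was 1.31, in place of 2.04, and IFI44L passed at 0.72 (adjusted p = 0.00405, against 1.55 and adjusted p = 0.154 with it). The other 21 higher calls and that of USP18 held in all 12.

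**Figure D4:**
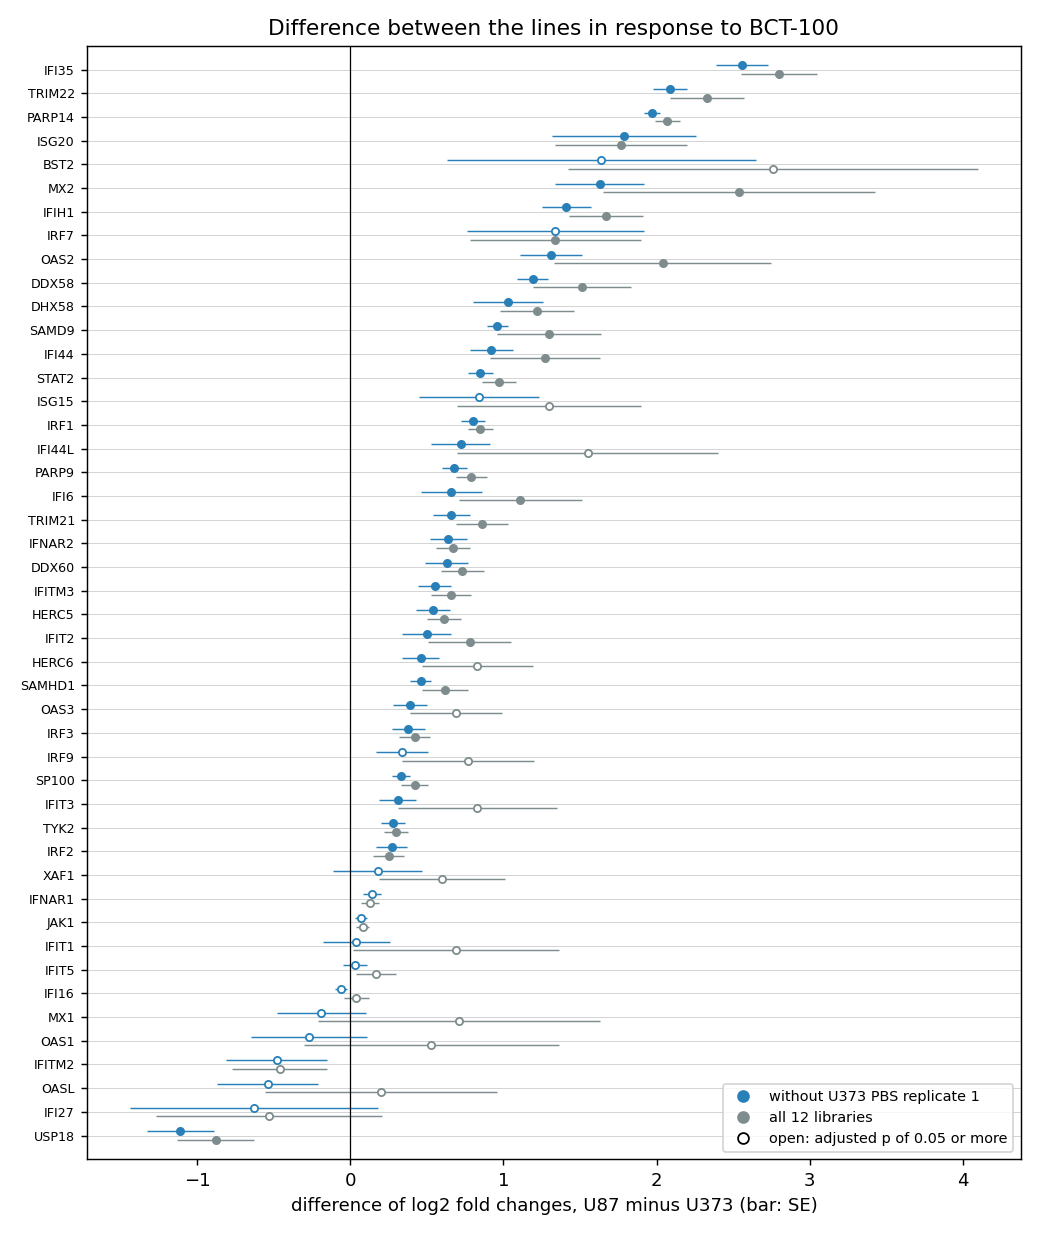
For each of the 46 tested genes, the U87 log2 fold change minus the U373 log2 fold change, with SE bars, in the fit without U373 PBS replicate 1 (blue) and with all 12 libraries (grey); open symbols have an adjusted p of 0.05 or more. Most points lie right of 0, IFI35 farthest without that library at 2.56 and USP18 at the other end at -1.11, and the grey bars are widest for BST2, MX1 and MX2.

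The lines were also compared in PBS, at 72 h. Between U87 PBS and U373 PBS, 16 of the 46 genes were higher in U87, 16 lower and 14 did not pass, against 43.0% and 40.1% of all genes. Both shares lay below those of all genes. Without U373 PBS replicate 1, 25 were higher and 15 lower, against 42.6% and 38.7%. The share higher then lay above that of all genes, and the share lower still lay below it. IRF7 was at least 44.1-fold higher in U87 PBS, with 3 reads assumed over the whole U373 PBS group, and OASL was 29.1-fold higher (log2 fold change 4.86 ± 0.54, adjusted p = 1.28e-05), or 48.6-fold without U373 PBS replicate 1 (5.60 ± 0.25). JAK1 (0.44 ± 0.03, adjusted p = 3.2e-12) and SP100 (0.93 ± 0.06, adjusted p = 1.53e-10) were also higher in U87 PBS. PARP14 was 0.338-fold (-1.56 ± 0.06, adjusted p = 4.91e-14), IFITM3 0.433-fold (-1.21 ± 0.09, adjusted p = 1.94e-10) and XAF1 0.0795-fold (-3.65 ± 0.29, adjusted p = 1.2e-08) in U87 PBS relative to U373 PBS. IRF1 was level between the lines in PBS, at 540.8 to 637.0 in U87 PBS and 547.3 to 621.6 in U373 PBS (log2 fold change 0.00 ± 0.06). OAS1 depended on the library that stood apart, at 0.28 ± 0.59 with it (adjusted p = 0.674) and 1.08 ± 0.28 without it (adjusted p = 0.00191). OAS2, MX2 and IFI44L likewise passed without it (1.14, 1.33 and 1.66, adjusted p = 1.22e-06, 1.5e-05 and 3.05e-09) and not with it (0.41, 0.42 and 0.83, adjusted p = 0.46, 0.547 and 0.227). IFIT1 and MX1 were lower in U87 PBS in both fits, at -1.87 and -3.07 with that library and -1.22 and -2.16 without it.

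Other genes of the pathway were counted on lists fixed by symbol. Shares of all genes were 33.6% higher and 35.7% lower in U87, and 35.6% higher and 35.8% lower in U373. Of 17 interferon genes and genes of their induction, 8 were tested, and 2 rose and 3 fell in U87 while 1 rose and 4 fell in U373 (medians -0.04 and -0.33). TRAF6, an adaptor of innate signalling, rose in U87 (0.71 ± 0.07, adjusted p = 1.03e-08) and U373 (0.61 ± 0.07, adjusted p = 8.81e-08), and IKBKE, a kinase that activates IRF3 and IRF7, fell in both (-0.75 ± 0.11 and -1.12 ± 0.11, adjusted p = 2.43e-06 and 7.15e-09). MAVS, on which RIG-I and MDA5 signal, fell in both by less (-0.33 ± 0.04 and -0.28 ± 0.04, adjusted p = 2.47e-07 and 1.39e-06). IRF5 rose in U87 (2.68 ± 0.34, adjusted p = 1.84e-06), and TRAF3 fell in U373 (-0.37 ± 0.05, adjusted p = 5.11e-06). IRF5 had 21.8, 43.3 and 37.0 in U87 with BCT-100, against only 8.8, 1.8 and 4.3 in U87 with PBS, so the size of its rise is uncertain. IFNB1 had 0.0 in all U87 libraries, and in U373 it had 7.4, 4.0 and 1.9 with BCT-100, against 2.8, 1.2 and 0.0 with PBS, too low to test.

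Of 10 receptors and regulators of the other interferon types, 9 were tested, with 5 higher and 1 lower in U87 (median 0.39) and 4 higher and 1 lower in U373 (median 0.17, and 0.49 with the same counts without U373 PBS replicate 1). Shares of all genes were 33.6% higher and 35.7% lower in U87, and 35.6% and 35.8% in U373. SOCS3, a feedback inhibitor of cytokine receptors, rose in U87 (0.95 ± 0.06, adjusted p = 4.07e-11) and in U373 (1.54 ± 0.06, adjusted p = 1.6e-14), with a U87 minus U373 difference of -0.59 ± 0.09 (adjusted p = 1.12e-05). JAK2 (0.56 ± 0.08 and 0.91 ± 0.08, adjusted p = 2.67e-06 and 2.52e-09) and the interferon gamma receptor chain IFNGR1 (0.55 ± 0.06 and 0.63 ± 0.06, adjusted p = 1.52e-07 and 1.93e-08) rose in both. IFNGR2 rose in U87 (0.39 ± 0.06, adjusted p = 6.36e-06), and PTPN11, a phosphatase, rose in U373 (0.48 ± 0.03, adjusted p = 7.98e-12).

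Of 34 further interferon-stimulated genes, 32 were tested, with 14 higher and 9 lower in U87 (median 0.15) and 8 higher and 12 lower in U373 (median -0.16, and 10 higher and 11 lower with a median of -0.01 without U373 PBS replicate 1). Shares of all genes were 33.6% higher and 35.7% lower in U87, and 35.6% and 35.8% in U373 (34.5% and 34.0% without that library). Of these 32, 6 were 1.5-fold or more higher in U373 PBS replicate 1 than in the mean of the other 2, against 1.56% of all genes. APOL1, a lipoprotein that lyses trypanosomes, rose in U87 (2.23 ± 0.09, adjusted p = 2.06e-14) and did not pass in U373 (-0.10 ± 0.09, adjusted p = 0.353). APOL6 rose in both (1.87 ± 0.07 and 1.30 ± 0.07, adjusted p = 2.56e-13 and 2.83e-11), and GBP2, a GTPase induced mainly by interferon gamma, fell in both (-1.39 ± 0.11 and -2.23 ± 0.11, adjusted p = 8.56e-10 and 3.81e-13). APOBEC3G, a cytidine deaminase, rose in U87 (0.41 ± 0.11, adjusted p = 0.00308) and fell in U373 (-1.30 ± 0.11, adjusted p = 2.07e-09). UBE2L6, which carries ISG15, rose in both (0.64 ± 0.05 and 0.16 ± 0.05, adjusted p = 1.7e-10 and 0.00506), and CMTR1, an RNA cap methyltransferase, fell in both (-0.39 ± 0.06 and -0.66 ± 0.06, adjusted p = 2.96e-06 and 1.25e-09).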

How the data were processed

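RNA of 12 libraries was sequenced, 3 per group. The treatment label set the groups, since the protocol label reads PBS throughout. Per the submitters' processing notes, STAR, RSEM and hg38 were used, with versions not given. The authors deposited a signal table of RSEM expected counts scaled by a factor for each library. This was read from the values, of which 85.5% to 86.9% became whole within 0.001 reads once multiplied back. Of 19844 entries, 20 duplicates were dropped.

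A count model had been planned; the scaled values were instead tested with limma 3.58.1 (R 4.3.3, trend and robust) on log2(value + 1), for genes at 10 or more in at least 3 libraries, with 4 group means, 8 residual degrees of freedom and Benjamini-Hochberg adjustment at 0.05. The script was tested on simulated data. Fold changes on this scale understate changes of low genes. Exon overlaps come from GENCODE and promoters from RefSeq. Floors are 3 reads and cover counting error only. Every library value is printed for a panel of 22 genes and for the 5 smallest p in each comparison, with the 4 smallest p per treatment comparison for the other lists. The ranges and values of RSAD2, CMPK2, IFITM1, TRIM22, CXCL10, ISG20 and IRF5 were added after their values were seen. The genes, roles and lists were chosen with earlier results of these data known, and 2 genes of those lists are not reported here. Alternatives were other scalings, pseudocounts, filters, voom, a fold threshold, each line alone, a replicate block and leaving out each library.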

Additional observations from a re-analysis of the deposited data

Results flagged for a closer look

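The responses of 28 genes to BCT-100 differed between the lines in the test of the difference itself, with limma over all genes and an adjusted p under 0.05. These were 27 higher and 1 lower in U87 of the 46 tested, against 26.1% of all genes higher and 30.7% lower. All values here are differences of log2 fold changes, U87 minus U373, with all 12 libraries. Among the receptors, kinases and transcription factors they were 0.67 for IFNAR2, 0.30 for TYK2, 0.97 for STAT2, 0.85 for IRF1, 0.25 for IRF2, 0.42 for IRF3 and 1.34 for IRF7. The sensors had 1.67 for IFIH1, 1.51 for DDX58, 1.22 for DHX58 and 0.73 for DDX60. Differences of 0.78 for IFIT2, 2.04 for OAS2, 1.77 for ISG20 and 0.66 for IFITM3 were found among the RNA-binding and membrane effectors, and 2.54 for MX2, 0.62 for SAMHD1 and 1.30 for SAMD9 among the GTPase and nucleotide effectors. In the ISG15 system HERC5 had 0.61 and USP18 had -0.88, the 1 negative value. The TRIM, PARP and nuclear genes had 0.42 for SP100, 0.86 for TRIM21, 2.33 for TRIM22, 0.79 for PARP9 and 2.07 for PARP14. The remaining inducible genes had 1.11 for IFI6, 2.80 for IFI35 and 1.27 for IFI44. U373 PBS replicate 1 enters each of these values through the U373 control group. Without it the difference of MX2 was 1.63 and that of OAS2 was 1.31, the 2 of the 28 that moved by over 1.5 times, and that of IRF7 no longer passed (1.34, adjusted p = 0.0598). In the 12 fits that each left out 1 library, the call of IRF7 was lost in 11. Those of MX2, OAS2, IFI6, IRF2 and IFIT2 were lost in 9, 9, 7, 5 and 3.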

How the results depend on the processing

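With all libraries, U87 had 20 genes higher and 8 lower of 46, U373 5 and 24, the difference of responses 27 and 1, and the untreated lines 16 and 16. A threshold of 1.5-fold left 7 higher and 1 lower in U87, 2 higher and 16 lower in U373, 6 higher and 0 lower in the difference, and 7 higher and 10 lower between untreated lines, against 9.5% and 10.8%, 11.2% and 12.1%, 6.16% and 6.66%, and 22.2% and 20.7% of all genes. Without U373 PBS replicate 1, U373 had 10 higher and the untreated lines 25 higher, and 3 calls reversed or were gained with the opposite sign: HERC6 in U373 at 0.23 (adjusted p = 0.0374), and IRF9 at 0.34 (adjusted p = 0.0175) and SAMD9 at 0.15 (adjusted p = 0.0222) between untreated lines; the cause was not tested. Leaving out each replicate in turn gave 18 to 24 higher and 5 to 12 lower in U87, 4 to 10 and 23 to 27 in U373, 21 to 30 and 1 to 2 in the difference, and 14 to 25 and 14 to 17 between untreated lines; the 3 reversed values ran from -0.35 to 0.23, from -0.39 to 0.34 and from -0.37 to 0.15. The 5 lower in U87 came without U87 PBS replicate 2 or 3, and the 2 lower in the difference without U373 BCT-100 replicate 3. Of 4120 single-gene values under all alternatives, 3790 kept direction and side of the threshold, 41 changed sign but were called in neither fit, 68 gained a call, 218 lost one and 3 reversed, as given above. TMM, median-of-ratios and column-total scaling, 2 other pseudocounts, other filters, voom and each line alone changed no count of calls by over 1.5 times. Each line alone gave 25 higher and 12 lower of 45 in U87, against 4657 and 4958 of all 12673 genes. In U373 it gave 4 and 20 of 43, against 4871 and 4906 of 12666. Correlations of the deviations of same-numbered treated and PBS libraries were -0.031, 0.023 and 0.013 in U87 and -0.07, -0.053 and -0.026 in U373. They cannot decide whether the numbers pair samples, since each deviation is from a mean of only 3 libraries. With the replicate number as a block the counts were 17 and 7 in U87, 5 and 24 in U373, 27 and 1 in the difference and 13 and 16 between untreated lines. The count tests that had been planned were not run, since the values are scaled. Low counts limit BST2, IFI27, ISG20 and IRF5 in U87, IRF7 in U373 and the untested IFITM1, RSAD2 and CMPK2.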
